A study of Mus musculus with 22 samples.

Results

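Tuft cells are rare chemosensory cells of the gut lining that taste the contents of the lumen and signal to the immune system. The 9 genes described here are listed as their identity factors and markers. They comprise 5 transcription factors, Pou2f3, Gfi1b, Hmx2, Hmx3 and Spib, and 4 markers, Dclk1, Avil, Sh2d6 and Samd5. Samd5 was also high in the gate of secretory progenitors, as described below. The genes were listed by name and then followed through all 22 libraries of the study. They were chosen by their high counts in tuft cells and with their counts in secretory progenitors already known, so every value in those sorted populations is given as a description and carries no test. Of the 9 genes, 8 have a row among the 24421 genes of the count data. Sh2d6 is not analysed here.

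The libraries were RNA-seq of epithelial cells sorted from the colon crypts of untreated wild type C57BL/6N male mice of 5 to 7 weeks. All cells were live, Epcam+, Cd31- and Cd45-. Stem cells (Stem, n = 3) were gated as Cd44 highest, Cd24 low and Ckit-. Absorptive progenitors (AbsPro, n = 3) were Cd44 medium to high, Cd24 low and Ckit-. The SecPDG gate (n = 4), which holds secretory progenitors, deep crypt secretory cells and goblet cells, was Cd44 high with medium Cd24 and medium Ckit. Tuft cells (Tuft, n = 5) were Ckit+ and Cd24 high. Enterocytes (Ent, n = 5) were Cd44 low or negative and Cd24-, and enteroendocrine cells (EEC, n = 2) were Cd44 low or negative and Cd24+. Stem and AbsPro libraries came from 1 mouse each, whereas the other libraries pooled several mice. Each library held 4122122 to 22462518 counts on genes, with the lowest totals in EEC and Ent.

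As background, Pou2f3 is the POU-domain factor without which tuft cells do not form, and it is commonly placed at the top of the tuft program. Gfi1b is a zinc finger repressor also used in blood cell formation, Hmx2 and Hmx3 are neighbouring homeobox genes known from the inner ear and hypothalamus, and Spib is an ETS factor also used by B cells and M cells. Dclk1 is a microtubule-associated kinase widely used as the tuft cell marker, Avil encodes the actin-severing protein advillin of the tuft cell's brush, and Samd5 encodes a small protein with a sterile alpha motif.

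On mm10, Pou2f3 lies at chr9:43123939-43210369, Gfi1b at chr2:28609450-28621982, Spib at chr7:44525993-44532071 and Samd5 at chr10:9622936-9675208, all on the minus strand. Dclk1 at chr3:55242364-55539068 and Avil at chr10:127000709-127020994 are on the plus strand. Hmx3 at chr7:131542867-131544925 and Hmx2 at chr7:131548773-131558014 follow each other on the plus strand with 3847 bases between them. Exons of Avil overlap those of Tsfm on the other strand, and exons of Dclk1 overlap those of Gm21954 and Gm42609. Reads were counted without regard to strand, so reads within these overlaps cannot be assigned to either strand.

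The sequence before the start site is shown for 4 members because they cover the range of SecPDG levels described below, from Dclk1, the lowest relative to Tuft, to Samd5, the highest. Each line holds the 250 bases before a RefSeq start on GRCm38.p6, 5′ to 3′ on the gene's strand. The windows are chr10:127000459-127000708 (plus strand) for Avil, chr3:55242114-55242363 (plus) for Dclk1, chr7:44532072-44532321 (minus) for Spib and chr10:9675209-9675458 (minus) for Samd5. Capitals mark a motif match.
Avil: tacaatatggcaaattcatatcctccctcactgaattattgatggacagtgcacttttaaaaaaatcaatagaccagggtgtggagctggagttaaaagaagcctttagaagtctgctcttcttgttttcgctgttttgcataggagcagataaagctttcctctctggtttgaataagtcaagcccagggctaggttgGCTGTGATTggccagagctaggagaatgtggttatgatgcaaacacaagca
Dclk1: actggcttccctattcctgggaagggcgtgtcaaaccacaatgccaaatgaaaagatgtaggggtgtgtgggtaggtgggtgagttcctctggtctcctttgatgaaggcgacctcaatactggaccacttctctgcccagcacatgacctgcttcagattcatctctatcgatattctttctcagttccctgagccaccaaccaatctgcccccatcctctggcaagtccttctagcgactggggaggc
Spib: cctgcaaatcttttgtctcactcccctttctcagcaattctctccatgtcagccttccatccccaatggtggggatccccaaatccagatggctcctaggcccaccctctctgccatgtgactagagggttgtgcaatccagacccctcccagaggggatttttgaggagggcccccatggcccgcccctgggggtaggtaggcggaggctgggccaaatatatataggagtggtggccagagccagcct
Samd5: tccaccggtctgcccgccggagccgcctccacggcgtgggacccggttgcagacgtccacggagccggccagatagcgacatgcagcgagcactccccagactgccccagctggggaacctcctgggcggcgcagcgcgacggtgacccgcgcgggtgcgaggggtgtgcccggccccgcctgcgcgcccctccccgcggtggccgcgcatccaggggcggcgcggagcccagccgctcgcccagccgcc
Of the 9 members, 8 had such a window in the RefSeq table used here, with 10 windows in all, and Pou2f3 had none. They were searched on both strands for the octamer ATGCAAAT read by POU factors, the PU box GAGGAAGT of the Spi1 and Spib type, the Gfi1 sequence AATCACNGC and the Hmx core CAAGTG, which do not overlap each other in the windows shown. The only match was the Gfi1 sequence in the Avil window, on the opposite strand and beginning 51 bases before the start. Over all 32851 windows of this length, the Gfi1 sequence was present in 0.776%, the octamer in 1.60%, the PU box in 2.44% and the Hmx core in 11.6%. The windows differed in base composition. G and C made up 42.0% of the Avil window, 52.4% of the Dclk1 window, 58.0% of the Spib window and 78.4% of the Samd5 window, against a median of 52.4% over all windows. A match is a description of the letters and shows no binding.

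Levels are given as normalized counts, which are the counts after scaling each library by edgeR's TMM factors. All 8 members had their highest mean in Tuft. Pou2f3 was at 1842, 1333, 2346, 3852 and 2392 normalized counts in the 5 Tuft libraries, with a mean of 2353 ± 942 (SD, n = 5). Spib was close to it at 2246, 1453, 2927, 3199 and 2299, with a mean of 2425 ± 679 (SD, n = 5). Both factors were lowest in Tuft 2 and highest in Tuft 4.

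The homeobox pair differed in level. Hmx3 read 1418, 420, 739, 1072 and 698 in the Tuft libraries, a mean of 870 ± 384 (SD, n = 5). Hmx2 read 138, 191, 370, 443 and 294, a mean of 287 ± 125 (SD, n = 5). Tuft 1 was the highest of the 5 for Hmx3 and the lowest for Hmx2, while Tuft 2 to Tuft 5 ranked in the same order for both genes.

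Gfi1b was the most variable of the factors. It read 29.3, 87.1, 413, 395 and 238 in the Tuft libraries, a mean of 232 ± 174 (SD, n = 5) and a coefficient of variation of 75.0%, against 28.0% for Spib and 40.0% for Pou2f3. Tuft 1, the lowest for Gfi1b, was at 1842 for Pou2f3 and 2246 for Spib.

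Dclk1 was the most counted member. It read 23982, 11726, 23206, 31012 and 19590 in Tuft, where the mean was 21903 ± 7034 (SD, n = 5). Avil read 6865, 4215, 5867, 11995 and 7298, a mean of 7248 ± 2906 (SD, n = 5). Samd5 was much lower and the most even, at 485, 524, 410, 322 and 584, a mean of 465 ± 102 (SD, n = 5). Tuft 4, the highest library for Pou2f3, Spib, Dclk1 and Avil, was the lowest for Samd5.

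Between genes, levels can be compared only per length of exon. On that scale Avil led in Tuft with 2133 normalized counts per kb of exon, followed by Dclk1 with 1432, Spib with 845, Pou2f3 with 762 and Hmx3 with 597. Gfi1b at 127, Hmx2 at 89.3 and Samd5 at 67.1 formed the lower end. In SecPDG the order by the same measure was different, with Avil at 82.9 and Samd5 second at 50.4, while Dclk1 fell to seventh place at 10.02.

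**Figure D1:**
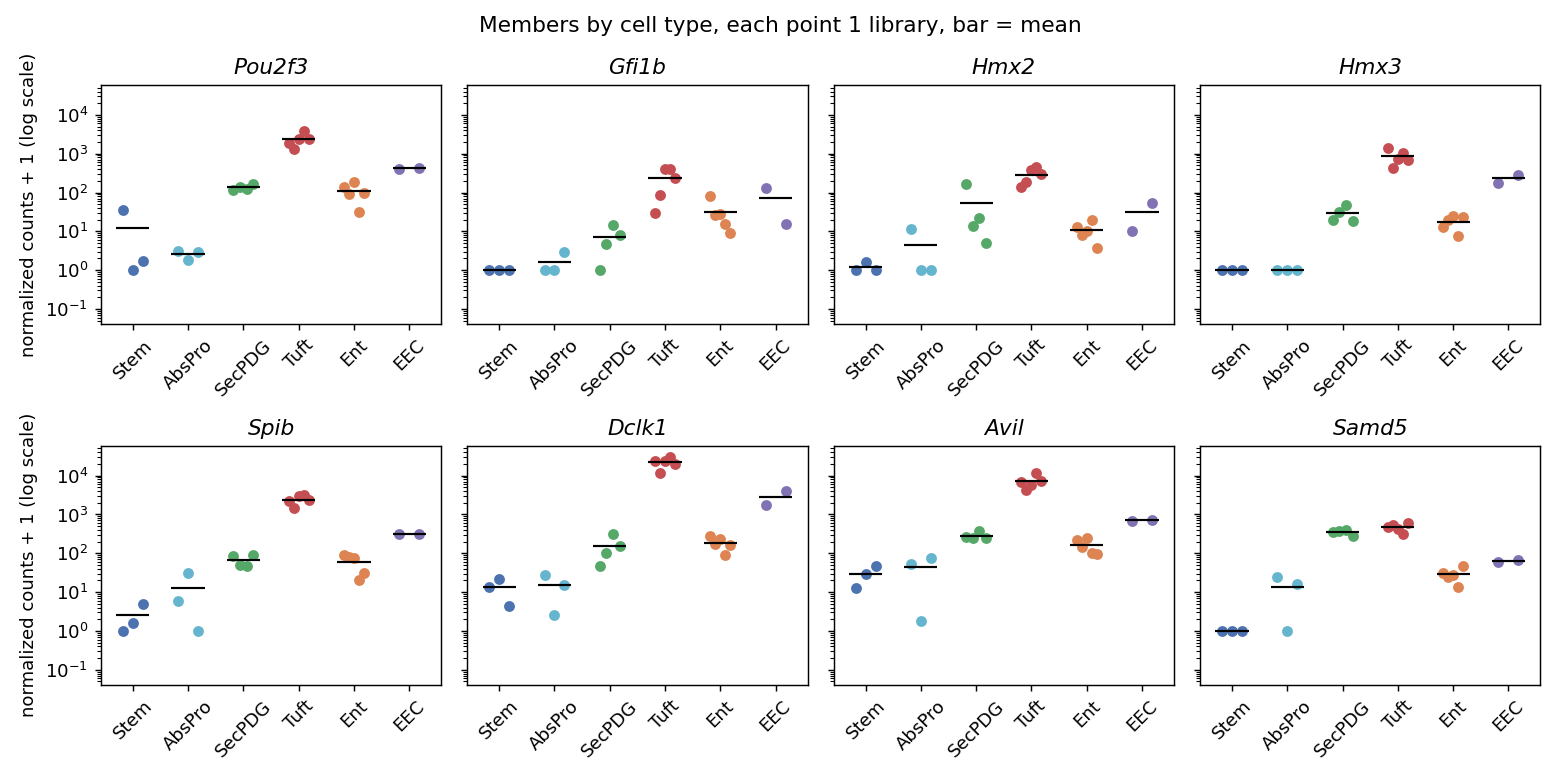
Normalized counts plus 1 (log axis) of each of the 8 members in the 22 libraries, 1 point a library, with the mean of each sorted population as a bar. The Tuft mean is highest in every panel, and SecPDG libraries reach the Tuft range in the Samd5 panel, at 271 to 404 against 322 to 584, and through SecPDG 1 in the Hmx2 panel.

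In the stem cell gate the members were near or at 0. Gfi1b, Hmx3 and Samd5 had no count in any of the 3 Stem libraries, and Hmx2 had a total of 1 count. Spib read 0, 0.6 and 4.0 normalized counts, and Dclk1 read 12.2, 21.1 and 3.4. Pou2f3 read 33.7, 0 and 0.7, so that its Stem mean of 11.4 ± 19.2 (SD, n = 3) rests on Stem 1 and is 0.337 without that library. Avil was the member with the most Stem counts, at 11.5, 28.2 and 47.2.

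In SecPDG most members were above their Stem level. In 7 of the 8 members every SecPDG library lay above every Stem library, with Gfi1b as the exception. Over all 22781 genes tested, 8.88% met that description, and the count is a description here since the genes were picked with these levels known. In bulk libraries such as these, fewer tuft cells in the sort and less RNA per cell cannot be told apart.

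The factors differed in how far they had risen. Pou2f3 read 116, 134, 124 and 165 normalized counts in the 4 SecPDG libraries, a mean of 135 ± 21.2 (SD, n = 4), which is 11.8-fold the Stem mean and 5.73% of the Tuft mean. Stem 1 holds nearly all of the Stem counts, so the fold depends on that library while the share of the Tuft level does not. Its SecPDG libraries agree more closely than those of any other factor, with a coefficient of variation of 15.7%.

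Spib read 85.1, 49.7, 45.5 and 91.1 in SecPDG, a mean of 67.9 ± 23.6 (SD, n = 4) that is 2.80% of the Tuft mean. Hmx3 read 18.9, 29.8, 46.3 and 17.6, a mean of 28.2 ± 13.3 (SD, n = 4) and 3.24% of Tuft. Against the Stem libraries, all at 0, Hmx3 was at least 40.9-fold higher, taking 3 counts over the group as the limit that a count of 0 allows. That limit covers counting error only.

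Hmx2 was carried by a single library. It read 169 in SecPDG 1 and 12.4, 21.1 and 3.9 in the others, for a mean of 51.7 ± 78.7 (SD, n = 4) or 18.0% of Tuft. Without SecPDG 1 the mean was 12.5 and the share 4.34%, which falls among the other factors. With only 1 count in Stem, the ratio to Stem was 225, with a 95% exact Poisson interval from 40.4 to 8883 that covers the counting error of the Stem count only.

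Gfi1b was the factor nearest to the floor in SecPDG. It had no count in SecPDG 1 and read 3.7, 13.5 and 6.9 in the other libraries, a mean of 6.02 ± 5.71 (SD, n = 4) that is at least 8.73-fold the Stem level and 2.59% of Tuft (1.52% without SecPDG 3). SecPDG 1, where Gfi1b was at 0, was the library with the high Hmx2 value.

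Among the markers, Dclk1 was the furthest from its tuft level. It read 46.3, 98.2, 313 and 156 in SecPDG, a mean of 153 ± 115 (SD, n = 4), which is 12.5-fold the Stem mean but 0.699% of the Tuft mean (0.457% without SecPDG 3). Avil read 261, 246, 378 and 241, a mean of 282 ± 65.0 (SD, n = 4), or 9.73-fold the Stem mean and 3.88% of Tuft. SecPDG 3 held the highest reading of Dclk1, Avil, Samd5, Gfi1b and Hmx3 in that gate.

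Samd5 had a different course from the other 7. It was at 0 in all Stem libraries and read 357, 363, 404 and 271 in SecPDG, a mean of 349 ± 55.9 (SD, n = 4). That is at least 506.5-fold the Stem level and 75.1% of the Tuft mean, with the 4 libraries between 58.4% and 87.0%. The Tuft and SecPDG libraries overlapped for Samd5, and also for Hmx2 through SecPDG 1. In the other 6 members every Tuft library lay above every SecPDG library, which was true of 8.16% of all genes tested.

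**Figure D2:**
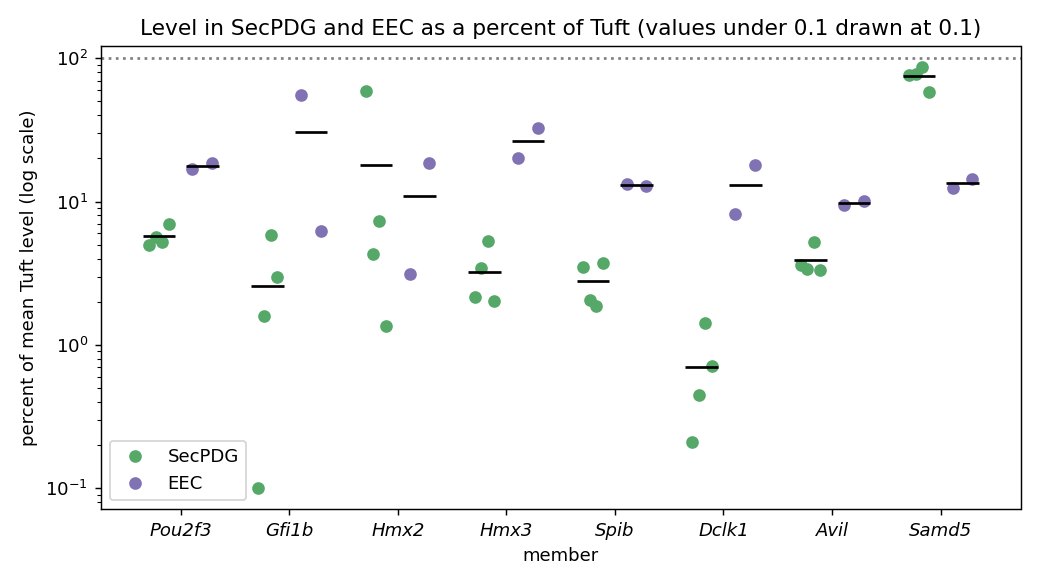
Level of each member in the SecPDG libraries (green) and EEC libraries (purple) as a percent of its mean Tuft level, on a log axis, with the mean as a bar and the dotted line at the Tuft mean. Samd5 stands at 75.1% in SecPDG whereas 6 of the others lie between 0.699% and 5.73%, and Hmx2 is spread from 1.36% to 58.9%.

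Markers of other secretory cells were also present in the Tuft gate, and these values stand beside the Samd5 result. The summed level of 8 goblet genes, among them the mucin Muc2, the trefoil peptide Tff3 and the goblet cell factor Spdef, ran from 726303 to 3071540 normalized counts in SecPDG, from 720549 to 1095409 in Tuft and from 19419 to 32564 in Stem. All 8 were detected in both gates. Muc2 itself had a mean of 636062 ± 366653 (SD, n = 4) in SecPDG and 675085 ± 230420 (SD, n = 5) in Tuft. The other goblet genes all averaged lower in Tuft than in SecPDG, such as Zg16 at 785 against 5591 and Tff3 at 2338.5 against 7678. Zg16 and Tff3 were called lower in Tuft (edgeR adjusted p = 9.38e-07 and 0.00153). The list's median log2 fold change in Tuft against SecPDG was -1.11, against 0.72 for all genes. The summed level of 8 enteroendocrine genes was 2020 to 6066 in SecPDG and 1464 to 27531.5 in Tuft. The part of these cells in the level of Samd5 or of any other member was not tested.

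The genes with the pattern most like each member were then listed. Likeness was measured as Pearson's r of log2 CPM, the counts scaled to library size, over all 22 libraries among 13188 genes, a description in which the libraries share their gates and depth. For Pou2f3 the 3 most alike were Plcb2, the phospholipase of taste transduction (r = 0.963), Pfkfb3 (0.953) and Ccdc129 (0.947). For Hmx3 they were Fyb (0.979), Rgs13 (0.977) and Gnat3, the taste G protein gustducin (0.971), and for Dclk1 Gnat3 (0.979), Fyb (0.972) and Bmx (0.968). Avil was most like Pik3r5 (0.962), Plcb2 (0.959) and Trpm5, the taste cation channel (0.958).

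Spib was most like Pik3cg (0.960), Nebl (0.959) and Sh2d7 (0.95), Gfi1b most like Ly6g6f (0.935), Plekhs1 (0.928) and Pnpla3 (0.922), and Hmx2 most like Rgs13 (0.904), Vav1 (0.898) and Fyb (0.893). Samd5 was most like Kcnma1, a large-conductance potassium channel (0.958), Irak3 (0.944) and Rgs2 (0.938). None of these 3 was among the nearest genes of another member. In SecPDG, Kcnma1 stood at 139.5% of its Tuft level, Irak3 at 127.7% and Rgs2 at 52.2%, whereas the genes nearest to the other 7 members stood between 0.9% and 21.2%. These shares follow from choosing the genes for their likeness and add no evidence on the members.

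A list of 24 further tuft cell genes showed how the members compare with the rest of the program. Like the members, these genes were chosen with earlier results of these data known. Their counts and p-values therefore describe the list and are no independent evidence. In SecPDG against Stem, 6 of the 24 were called higher and 0 lower by edgeR's quasi-likelihood test, where a call needs an adjusted p (Benjamini-Hochberg) below 0.01 together with 50 or more normalized counts on average. Of all genes tested, 3.38% were called higher and 1.59% lower in that comparison. The 6 were Plcb2, Trpm5, Rgs13, Fyb, Lrmp and Kctd12. Over the list the log2 fold changes had a median of 2.01, against 0.00 for all genes. Without Stem 1, 4 were called.

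Plcb2 rose from 8.03 ± 4.79 (SD, n = 3) in Stem to 284 ± 93.7 (SD, n = 4) in SecPDG, a log2 fold change of 5.13 ± 0.69 (SE, edgeR adjusted p = 5.33e-08). Trpm5 rose from 12.2 ± 12.1 to 153 ± 27.6 (log2 3.66 ± 0.82 SE, edgeR adjusted p = 0.00122). Rgs13, a regulator of G protein signalling, was at 0 in Stem and AbsPro and at 87.5 ± 41.1 in SecPDG (edgeR adjusted p = 6.05e-05). Lrmp, an endoplasmic reticulum protein, rose from 12.9 ± 5.05 to 387 ± 104 (edgeR adjusted p = 1.34e-06).

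Several eicosanoid and cytokine genes of the list were not called in SecPDG. Alox5, the leukotriene-forming lipoxygenase, had a log2 fold change of 1.38 ± 0.83 (SE, edgeR adjusted p = 0.430), Ptgs1, the cyclooxygenase, 1.54 ± 1.35 (SE, edgeR adjusted p = 0.674) and Il17rb, a subunit of the IL-25 receptor, 0.28 ± 0.63 (SE, edgeR adjusted p = 0.901). Il25, the tuft cell cytokine, totalled 2 counts over the SecPDG libraries. A p above the threshold does not show that these genes stayed level.

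In Tuft against Stem, 19 of the 24 were called higher and 0 lower, where 7.84% of all genes tested were called higher and 4.23% lower. In Tuft against SecPDG, 19 were again higher and 0 lower, where the shares of all genes were 3.02% and 0.351%. Both comparisons contain the same Tuft libraries. The genes were listed as tuft cell genes, so their rise in Tuft was largely set by that choice and is no test. The list's median log2 fold change was 8.07 against Stem, where the median of all genes was 0.83, and 5.45 against SecPDG, where it was 0.72. Itpr3, an inositol trisphosphate receptor, and Tas1r3, a taste receptor subunit, were among the listed genes not called against Stem, with log2 fold changes of -0.60 ± 0.37 (SE, edgeR adjusted p = 0.195) and 1.18 ± 0.46 (SE, edgeR adjusted p = 0.0421). Gng13, Sucnr1 and Il25 were left uncalled only by the minimum mean. Their log2 fold changes against Stem were 10.4, 9.94 and 8.0 (edgeR adjusted p = 6.66e-08, 5.56e-07 and 0.0014). With no minimum mean, 22 were called.

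Relative to Tuft, the members and the list sat at similar levels in SecPDG. The 23 listed genes with a mean of at least 50 in Tuft had a median SecPDG level of 2.71% of Tuft, and the 8 members had a median of 3.56%. Samd5 at 75.1% was above all listed genes but Itpr3, at 154%. In EEC the listed genes had a median of 18.8% of Tuft, from 0% for Gng13 to 596% for Itpr3, which was at 192% and 1000% in the 2 libraries. The members had a median of 13.25%, from 9.79% for Avil to 30.8% for Gfi1b. The 2 libraries gave 55.2% and 6.27% for Gfi1b, so without EEC 1 it was the lowest member.

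**Figure D3:**
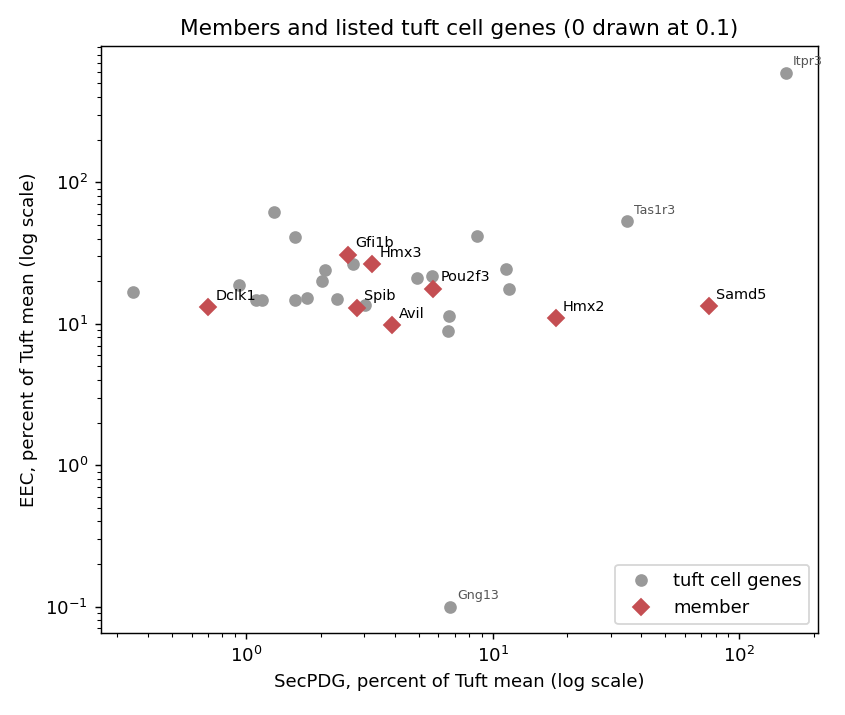
Mean level in SecPDG (horizontal, log axis) and in EEC (vertical, log axis) as a percent of the mean Tuft level, for the 8 members (red) and 23 listed tuft cell genes (grey). Most points lie at low SecPDG and intermediate EEC percentages, with Samd5 displaced to 75.1% in SecPDG at 13.4% in EEC.

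In AbsPro against Stem, 0 of the 8 members were called higher by edgeR, where 0.496% of all genes tested were, and 1 of the 8 had an unadjusted p under 0.05. That member was Samd5, which read 23.3, 0 and 15.0 in AbsPro and 0 in every Stem library (at least 18.5-fold, edgeR unadjusted p = 0.0223, adjusted p = 0.384). The DESeq2 Wald test called it (adjusted p = 7.22e-05). Hmx3 was at 0 in all 6 libraries of both gates. Pou2f3 read 2.1, 0.8 and 1.9 in AbsPro, and its log2 fold change of -2.60 became 1.94 without Stem 1.

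Enteroendocrine libraries held the members at intermediate levels. The share of tuft cells in the EEC gate was not tested, and in bulk libraries it cannot be told apart from RNA of the enteroendocrine cells. In EEC against Stem, 7 of 8 were called higher by edgeR, where 10.8% of all genes tested were. Every EEC library lay above every Stem library in all 8, as was the case for 24.9% of all genes. Members passed the minimum mean of 50 largely through their Tuft values, a route most other genes lack, so the count cannot be read against that share of all genes. Fits of only EEC and Stem called 4. EEC has only 2 libraries, with 4122122 and 13132315 counts on genes.

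Dclk1 read 1783 and 3940 in EEC, a log2 fold change over Stem of 7.85 ± 0.72 (SE, edgeR adjusted p = 2.67e-13). Pou2f3 read 396 and 439 (log2 5.32 ± 0.74 SE, edgeR adjusted p = 6.41e-08), and Spib read 322 and 309 (log2 7.51 ± 0.99 SE, edgeR adjusted p = 1.56e-08). Avil read 687 and 733 (log2 4.58 ± 0.61 SE, edgeR adjusted p = 2.38e-08). In these 4 genes both EEC libraries were above every SecPDG library. The same held for Hmx3 and, narrowly, for Gfi1b, whose lowest EEC library was at 14.6 and highest SecPDG library at 13.5. The share of all genes in this order was not counted, so the order cannot be read as particular to the members. Background reads, given below, were also more frequent in EEC than in SecPDG.

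Hmx3 read 175 and 285, at least 334-fold above Stem (edgeR adjusted p = 5.33e-08), and stood at 26.5% of Tuft. Samd5 read 57.9 and 66.7, at least 90.4-fold above Stem (edgeR adjusted p = 0.000607), which is below every SecPDG library. Background reads, described below, came to 63.9% of the EEC mean of Samd5. The calls of Hmx3 and Samd5 were lost when only EEC and Stem were fitted (edgeR adjusted p = 0.0139 and 0.0388). Over the EEC and Stem libraries alone, Samd5 and Gfi1b averaged below the minimum mean. They pass it only through other gates, so the EEC calls of Samd5 and Gfi1b depend on those gates. Gfi1b split between the libraries, at 128 and 14.6. Its call (edgeR adjusted p = 0.00486) was lost without EEC 1 (adjusted p = 0.301) and without any of Stem 1, Stem 2 and Stem 3 (0.0115, 0.0197 and 0.0199), and with library totals in place of TMM (0.0162) and in the fit of only EEC and Stem (0.0912). Hmx2, at 9.0 and 53.4, was not called (edgeR adjusted p = 0.0251).

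In Ent against Stem, 5 of 8 members were called higher by edgeR, where 10.7% of all genes tested were. With no minimum mean the member count stayed at 5, whereas all genes called in either direction went from 5058 to 9995. Spib and Samd5 pass the minimum only through other gates, and fits of only Ent and Stem called 3. The member count therefore cannot be read against that share. Every Ent library lay above every Stem library in 7 of the 8, but the same was true of 41.9% of all genes. Pou2f3 read 140, 90.6, 181, 29.7 and 96.9 in Ent (log2 3.34 ± 0.79 SE, edgeR adjusted p = 0.000518). Dclk1 read 275, 173, 226, 89.0 and 162 (log2 3.87 ± 0.85 SE, edgeR adjusted p = 0.000203). Ent 4 was the lowest library for both.

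Spib read 87.7, 78.0, 73.9, 19.4 and 30.5 (log2 5.06 ± 1.24 SE, edgeR adjusted p = 0.000703) and Avil 219, 141, 242, 102 and 94.2 (log2 2.42 ± 0.63 SE, edgeR adjusted p = 0.00123). The Avil call was lost without Stem 1 (adjusted p = 0.0111). Samd5 read 30.7, 24.1, 26.6, 12.5 and 45.7, at least 40.5-fold above Stem (edgeR adjusted p = 0.00387), and lost its call without Stem 1, Stem 2, Stem 3 or Ent 5 (adjusted p = 0.0115, 0.0165, 0.0165 and 0.0114). Gfi1b (edgeR adjusted p = 0.0123), Hmx3 (0.0240) and Hmx2 (0.139) were not called.

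Reads of gene families taken as not used by colon epithelium were also most frequent in Ent and EEC on average. The families were taken whole by name, so any of their genes in use would raise the values. Over 1531 olfactory, vomeronasal, keratin-associated, Rhox and Obox genes, the mean was 0.198 normalized counts per kb of exon in Stem, 0.295 in SecPDG, 2.35 in Tuft, 4.61 in Ent and 5.75 in EEC. Within EEC it was 9.695 in EEC 1 and 1.809 in EEC 2, and all members but Gfi1b and Spib read higher in EEC 2. The part of background reads in the member levels of EEC 1 and EEC 2 was not tested. The EEC percentages below rest on the mean of these unlike libraries. Scaled to exon length, this background was 114% of the Ent mean of Samd5 and 152% of that of Hmx2, so neither gene stood above it in Ent. It was 63.9% of the EEC mean of Samd5 and 59.3% of that of Hmx2. With this background taken off, Samd5 in EEC went from 13.4% of Tuft to 5.01%, and Hmx2 from 10.9% to 4.55%. For Pou2f3 it was 13.2% of the Ent mean and 4.25% of the EEC mean, and for Dclk1 38.1% and 3.08%. In SecPDG and Tuft it was at most 8.97% of the mean of any member.

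**Figure D4:**
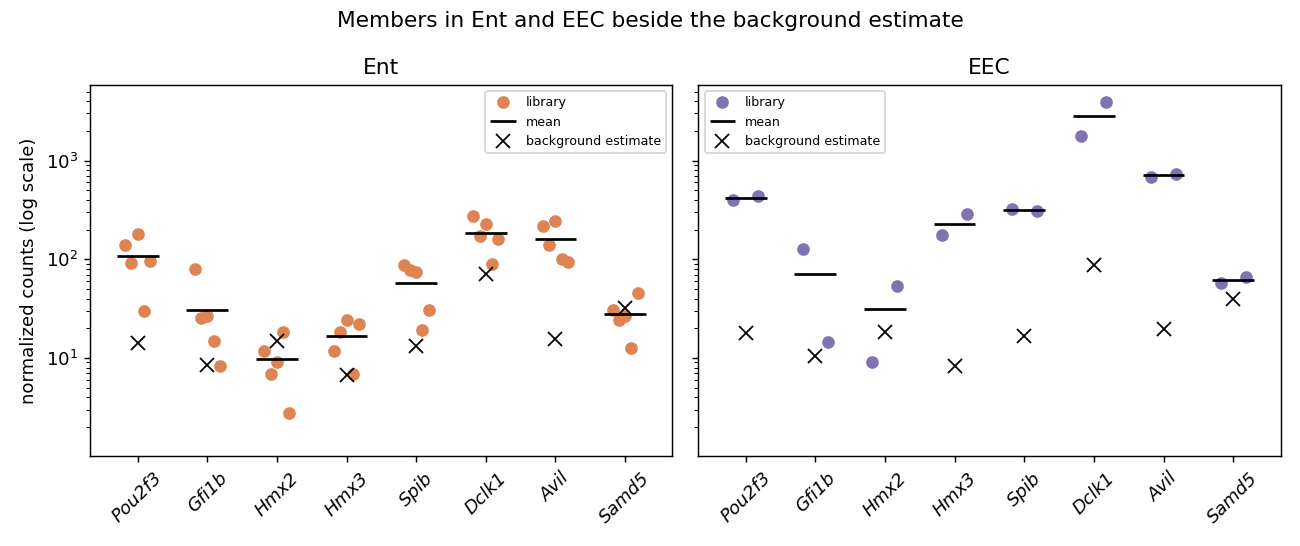
Normalized counts (log axis) of the 8 members in the Ent and EEC libraries, with the mean as a bar and the level given by background reads as a cross. The cross lies above the mean for Samd5 and Hmx2 in Ent and well below it for Pou2f3, Dclk1, Avil and Spib in EEC.

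The scaling also bears on Ent and EEC. With TMM, 2448 genes were called higher and 2610 lower in Ent against Stem, and with DESeq2 size factors 4583 and 1478, while for EEC the counts went from 2461 and 2079 to 4395 and 1276. The median log2 fold change of all genes was 1.17 in Ent and 0.68 in EEC with TMM, and DESeq2 size factors shifted these by 0.57 and 0.73. Library totals shifted them by 0.47 and 0.44, SecPDG against Stem by -0.23 and Tuft against SecPDG by 0.30. Of the genes called in SecPDG against Stem, 68.0% were higher with TMM and 44.3% with library totals. No called member changed direction under either.

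Across the 6 populations the order was Tuft, EEC, SecPDG, Ent for Pou2f3, Hmx3, Spib and Avil, and the SecPDG and Ent libraries overlapped in all 4. For Dclk1 Ent came before SecPDG, with overlapping libraries. Gfi1b ran Tuft, EEC, Ent and SecPDG, and each neighbouring pair overlapped. Samd5 and Hmx2 were the members with SecPDG second, and for Hmx2 all neighbours overlapped.

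Markers of other cell types that use some of these genes were examined in the same libraries. Of 7 B cell and plasmacytoid dendritic cell genes, which would go with Spib, 0 were called higher in Tuft against Stem and 1, Irf8, was lower, and their summed level was 1428.5 to 2063 in Tuft and 2806.5 to 2991 in Stem. Irf8 and Tcf4 carry most of that sum. The more specific genes averaged higher in Tuft than in Stem, at 27.6 against 4.11 for Cd79a, 20.1 against 2.18 for Cd79b, 19.1 against 0.640 for Ms4a1 and 16.1 against 3.79 for Siglech, and none of the 4 was called. Over the list the log2 fold changes had a median of 1.92, against 0.83 for all genes. Of 8 megakaryocyte and erythroid genes, which would go with Gfi1b, 7 were tested and 1, Itga2b, was higher, with a sum of 90.3 to 351 in Tuft and 42.9 to 103 in Stem, and Hbb-bs at 0 in every Tuft library.

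Of 8 mast cell genes, which share Ckit with the gate, 1 was higher (Gata2) and the sum was 58.55 to 405 in Tuft and 0 to 72.7 in Stem. Of 6 neuronal genes, which would go with Dclk1, 1 was higher (Rbfox3), with a sum of 109 to 329 in Tuft, 13.5 to 50.5 in Stem and 2231 to 4607 in EEC. Of 6 M cell genes, which also go with Spib, 1, Ccl9, was higher in both SecPDG and Tuft against Stem, and Gp2, which marks mature M cells, averaged 8.78 in SecPDG and 24.5 in Tuft. In Tuft against Stem the median log2 fold change was 4.24 for the mast cell list, 3.91 for the neuronal list and 4.32 for the M cell list. It was 1.72 for the megakaryocyte and erythroid list, against 0.83 for all genes. Many of these genes had low counts, so few calls do not show that such cells were absent. The part of these cells in the member levels was not tested.

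Marker lists of the epithelial types were read in the same fits. The 6 stem cell genes were all lower in SecPDG than in Stem and 5 of 6 were lower in Tuft. All 8 goblet genes were higher in SecPDG than in Stem, 7 were higher in Tuft, and 2, Tff3 and Zg16, were lower in Tuft than in SecPDG. Of 8 enterocyte genes, 4 were lower and 1 higher in both SecPDG and Tuft against Stem. Of 8 enteroendocrine genes, 2 were higher in SecPDG and 3 in Tuft against Stem, and their sum in EEC, 597033 to 1714880, was far above every other gate.

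No member appeared among the rows of the 15 tables of differential exon use and polyadenylation site use, which hold 224 to 6641 rows each, so no isoform change of a member can be given.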

How the data were processed

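RNA-seq was performed by the authors on 22 libraries of sorted mouse colon crypt cells, each RNA preparation holding at least 2500 cells, with sorts pooled where needed, and each library made from 1 ng of RNA. The authors trimmed paired reads, aligned them to UCSC mm10 with STAR 2.5.2a and counted them per gene symbol with HTSeq 0.6.1p1 without strand. The deposited values are raw counts per gene. Of all counted entries, 53.95 to 91.64% fell on the 5 lines that name no gene, and these lines were left out. Libraries held 4122122 to 22462518 counts on genes. The names of the SecPDG and Tuft count tables follow another form than those of the other populations. The authors' tables of splicing and polyadenylation hold their own comparisons and were searched for gene names only.

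Counts were scaled by TMM and fitted in edgeR 4.0.16 (R 4.3.3) with filterByExpr, glmQLFit (legacy = FALSE) and glmQLFTest, all 22 libraries in 1 model of cell type, with 22781 genes tested. Calls needed an adjusted p below 0.01 together with 50 or more normalized counts on average. On counts simulated for Tuft against Stem over 22781 genes, with changed genes of mean 50 or more, 98.5% of genes changed by 4 on the log2 scale were called, 49.3% of those changed by 2 and 0% of those changed by 1, with 1 false call. Positions and exon lengths came from GENCODE vM21 on GRCm38, the same assembly as mm10, and promoters from RefSeq (GRCm38.p6). The members and lists were chosen with earlier results of these data known. Named were all members, listed genes by counts with values for those highest in Tuft or called, and for each member the 3 genes of highest Pearson r (log2 CPM, prior count 2, mean of at least 50). Alternatives were DESeq2 1.42.0, its size factors, library totals, no filter, no minimum mean, adjusted p under 0.05, pairwise fits, the replicate block, leaving out each library, the legacy fit (chosen after seeing the data), background subtraction and medians. All comparisons with Stem share the same 3 libraries. Mice were pooled in most populations, so the SD is that between pools. One marker gene of the lists is not reported here.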

Additional observations from a re-analysis of the deposited data

Results flagged for a closer look

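Within groups of 4 or 5 libraries, 24 sets of member values were screened for a library far from the others, where chance alone flags about 1 in 20 groups, and 3 were found. Hmx2 in SecPDG 1 was at 169.2 normalized counts, and its gap to the nearest library was 0.896 of the range of the 4. Avil in SecPDG 3 was at 378.2, with a gap of 0.854 of the range. Gfi1b in Ent 1 was at 78.97, with a gap of 0.742 of the range of the 5 Ent libraries. The cause of these values was not tested.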

How the results depend on the processing

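Member calls depended on the test at the low end of counts. DESeq2 called 1 member in AbsPro, 8 in Ent and 8 in EEC, and the legacy fit 1, 7 and 8. At adjusted p under 0.05 the counts were 0, 7 and 8, and library totals gave 6 in EEC. All genes called in either direction numbered 5274 in Ent and 5708 in EEC with DESeq2, and 3082 and 3197 in the legacy fit. For the reasons given above, the member counts cannot be read against these. Pairwise fits called 3 members in Ent and 4 in EEC, with 6363 and 1468 genes in all. Samd5 and Spib left the Ent calls there because their mean over those libraries is under 50. Leaving out a library gave 0 to 0 members in AbsPro, 3 to 5 in Ent and 6 to 7 in EEC, the lowest without Stem 1. In the same runs listed tuft cell genes ranged from 4 to 6 in SecPDG against Stem, 19 to 19 in Tuft against Stem and 19 to 20 in Tuft against SecPDG, and relatives from 4 to 4, 5 to 7 and 2 to 3. Across the other alternatives the listed tuft cell genes numbered 6 to 8 in SecPDG against Stem and 18 to 22 in both Tuft comparisons. No called member changed direction. Among those not called in AbsPro, 4 changed sign when a library was left out: Pou2f3 to 1.94 without Stem 1, Hmx2 to -1.51 without AbsPro 1, Dclk1 to -0.24 without Stem 3 and -0.69 without AbsPro 1, and Avil to -0.03 without AbsPro 3.

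Numbers of genes called moved more. AbsPro against Stem went from 134 to 272 at adjusted p under 0.05, 228 with DESeq2 size factors, 211 with library totals, 441 with DESeq2, 83 in the legacy fit and 455 pairwise. SecPDG against Stem went from 1132 to 1712, 1873 with library totals, 1877 with DESeq2, 707 legacy and 2178 pairwise. Tuft against Stem went from 2750 to 4482 at adjusted p under 0.05 and 1468 legacy, and Tuft against SecPDG from 768 to 1827, 1689 with DESeq2 and 205 legacy. Without a minimum mean Ent gave 9995 and EEC 7645, and Ent gave 3082 legacy and EEC 1468 pairwise. Leaving out a library gave 53 to 164 for AbsPro (53 without Stem 1, 58 without Stem 3, 69 without AbsPro 3, 89 without Stem 2), 763 to 1015 for SecPDG, 1690 to 3309 for Tuft (lowest without Stem 2), 3972 to 5654 for Ent, 3277 to 5631 for EEC and 340 to 1375 for Tuft against SecPDG (340 without SecPDG 3, 363 without SecPDG 4, 381 without SecPDG 1, 411 without Tuft 4, 467 without SecPDG 2, 487 without Tuft 3, 1375 without Tuft 5). The cause was not tested.

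The SecPDG share of the Tuft level was 4.61% for Pou2f3 and 62.4% for Samd5 with library totals. Leaving out a library gave 5.17 to 6.81% for Pou2f3, 1.52 to 3.45% for Gfi1b, 4.34 to 23.5% for Hmx2, 2.54 to 3.85% for Hmx3, 2.48 to 3.11% for Spib, 0.457 to 0.862% for Dclk1, 3.44 to 4.65% for Avil and 69.7 to 80.7% for Samd5. With the replicate block, AbsPro gave 209 genes and Tuft against SecPDG 1431, and no member call changed. Over 44 pairs of libraries with the same number, deviations from the group means correlated from -0.39 to 0.50 with a median of 0, so the numbers were not taken to pair the samples.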

Other observations

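Relatives of the members, 25 genes of the same families or partners, were counted in the same fits. In SecPDG against Stem 4 were called higher and 1 lower, in Tuft against Stem 7 higher and 0 lower, and in Tuft against SecPDG 3 higher and 1 lower, all by edgeR's adjusted p. Sh2d7, a relative of Sh2d6, read 3.42 ± 3.44 (SD, n = 3) in Stem, 238.5 ± 110 (SD, n = 4) in SecPDG and 6383 ± 2111 (SD, n = 5) in Tuft, and rose in all 3 comparisons. 1810046K07Rik, the mouse counterpart of the Pou2f3 coactivator POU2AF2, averaged 5.35, 40.3 and 988 in the same gates and rose in Tuft against Stem (log2 7.46 ± 0.61 SE, edgeR adjusted p = 1.39e-15) and against SecPDG (log2 4.64 ± 0.42 SE, edgeR adjusted p = 1.07e-13).

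Gfi1, the relative of Gfi1b, averaged 35.3 in Stem, 646 in SecPDG and 525.5 in Tuft, and rose in both gates against Stem (edgeR adjusted p = 1.36e-09 and 4.96e-09). The advillin relatives Gsn and Scin also rose in both. Scin was lower in Tuft than in SecPDG (log2 -1.71 ± 0.45 SE, edgeR adjusted p = 0.00981), with 1 SecPDG library at 36144 and the lowest at 5572. Samd4 and Samd9l rose in Tuft against Stem, and Dclk3, a relative of Dclk1, fell in SecPDG against Stem (log2 -2.11 ± 0.49 SE, edgeR adjusted p = 0.00188). Pou2f1 was not called, with means of 936 in Stem, 713 in SecPDG and 905 in Tuft.

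Of 12 fate transcription factors, 6 were higher and 2 lower in SecPDG against Stem, 3 were higher and 1 lower in Tuft against Stem, and 0 were called in Tuft against SecPDG. Atoh1, which sets the secretory fate, averaged 211 in Stem, 7054 in SecPDG and 3691 in Tuft. Spdef averaged 130 in Stem, 6398 in SecPDG and 3951 in Tuft. Hes1, the Notch target that opposes Atoh1, fell against Stem with log2 fold changes of -1.37 in SecPDG and -1.70 in Tuft (edgeR adjusted p = 0.00279 and 4.64e-05).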
